A study of Mus musculus with 6 samples.

Results

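Interferon-stimulated genes (ISGs), the genes that cells switch on when interferon reaches them, were examined in mouse regulatory T (Treg) cells with and without JunB. The set held 39 ISGs of the 37305 genes in the expression table, chosen by gene name (the row of highest mean level per name, of which each name had 1). They were divided by role into 20 antiviral effectors, 5 nucleic acid sensors, 6 GTPases of the IRG and GBP families, and 8 STAT/IRF regulators and modifiers. All 39 of the 39 reached a mean level of 1 FPKM (a fragment count divided by transcript length and by the library's mapped total), the minimum for testing, and levels of different genes are compared on this per-length scale.

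Polyadenylated RNA was sequenced from CD4+CD25+ Treg cells, T cells that restrain immune responses, taken from spleens of C57BL/6 mice. *Junb*-deficient cells (3 libraries) were from mice of the genotype Cd4 Cre Junb fl/fl. Control cells (3 libraries) were from Junb fl/fl animals, whose *Junb* alleles have the same loxP sites but which carry no Cre. Cre under the *Cd4* promoter acts in developing T cells, so *Junb*, the gene of an AP-1 family transcription factor, is removed from T cells in general and not from Treg cells alone. The methods describe sex-matched mice of 6 to 12 weeks and do not say which mouse or how many mice each library came from. The p values therefore set the genotype difference only against the spread between these libraries, some of which may be technical. They may not carry over to mice.

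Interferons are cytokines that warn cells of infection. Type I interferons (IFN-α and IFN-β) bind IFNAR1 and IFNAR2, whose kinases JAK1 and TYK2 phosphorylate STAT proteins. STAT2 acts together with IRF9 in the complex ISGF3, which binds the interferon-stimulated response element (ISRE) in the promoters of ISGs. Type II interferon (IFN-γ) acts through IFNGR1, IFNGR2, JAK1 and JAK2 and leads to the binding of GAS elements. The IRG and GBP GTPases are best known as responders to IFN-γ that attack the vacuoles of intracellular pathogens, while the OAS, IFIT and Mx proteins interfere with viral RNA and viral assembly.

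RefSeq promoter windows on GRCm38.p6, from 250 bases before to 50 bases after the start site, could be matched for 29 of the 39 ISGs. The ISRE core, spelled here as GAAA, any 2 bases and GAAA and searched on both strands, occurred in the windows of 17 of these 29 genes (58.6%), against 307 of the 7719 tested genes with a window (3.98%) and 1079 of all 27025 genes with one (3.99%). By role it was found in 8 of 15 effectors, 3 of 3 sensors, 5 of 6 GTPases and 1 of 5 regulators. Both other motifs were rarer than the ISRE core in the ISG windows, and more frequent there than in tested genes. The GAS motif TTCNNNGAA was present in 9 of 29 ISGs (31.0%) and in 8.64% of tested genes, and 1 GAS match, in *Bst2*, shared bases with an ISRE match. The AP-1 motif TGANTCA was present in 7 of 29 (24.1%) and in 5.79% of tested genes. These are matches of letters, and binding was not measured here. Stretches that hold the ISRE core are given for the 5 GTPases that have one, since the GTPases were the role with the most even direction, and for 4 effectors and *Stat2*, among which *Oas3* and *Stat2* did not overlap between genotypes. They run 5′ to 3′ on the gene's strand, with the matches to the core, or to its complement that starts with TTTC, in capitals.
Irgm1, minus strand, chr11:48871425-48871460: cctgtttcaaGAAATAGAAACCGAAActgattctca
Igtp, plus strand, chr11:58199512-58199541: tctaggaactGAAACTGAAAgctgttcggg
Gbp2, plus strand, chr3:142620594-142620623: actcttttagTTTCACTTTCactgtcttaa
Gbp3, plus strand, chr3:142559989-142560024: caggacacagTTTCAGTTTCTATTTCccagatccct
Gbp7, plus strand, chr3:142530273-142530302: gtgtgtgcagTTTCAGTTTCagttctccat
Isg15, minus strand, chr4:156200865-156200906: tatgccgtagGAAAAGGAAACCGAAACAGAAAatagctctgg
Oas1a, minus strand, chr5:120907520-120907555: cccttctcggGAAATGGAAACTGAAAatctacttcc
Oas3, minus strand, chr5:120777715-120777744: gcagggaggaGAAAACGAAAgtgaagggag
Bst2, minus strand, chr8:71537577-71537612: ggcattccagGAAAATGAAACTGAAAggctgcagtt
Stat2, plus strand, chr10:128270266-128270295: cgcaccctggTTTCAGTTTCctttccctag

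In *Irgm1*, *Gbp3*, *Oas1a* and *Bst2* there were 2 overlapping copies of the core, and in *Isg15* there were 3. The first core began 30 bases before the start site in *Irgm1*, 34 in *Igtp*, 45 in *Gbp3*, 53 in *Gbp7* and 59 in *Gbp2*. The window of *Ifi47*, the remaining GTPase, held no match, nor did those of *Oasl1*, *Oasl2* and *Irf7*.

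The genotype labels were checked on *Junb* itself, which was at 180, 49.1 and 37.8 FPKM in *Junb*-deficient 1, 2 and 3, against 921, 298 and 256 FPKM in control 1, 2 and 3. The lineage factor *Foxp3* was at 130 to 153 FPKM in *Junb*-deficient libraries and at 115 to 161 in controls, and all 7 Treg markers were detected in all 6 libraries. Their sum was lower without JunB, at 1190 to 1336 FPKM against 1402 to 1514 FPKM in controls. *Ctla4* (137 to 193 against 251 to 266 FPKM) and, narrowly, *Ikzf2* (44.3 to 61.17 against 61.19 to 64.7 FPKM) lay below all controls. The others overlapped, with higher *Junb*-deficient means for *Foxp3*, *Il2ra* and *Cd4*. Both libraries numbered 1, 1 of each genotype, stood apart from the other 4. Their sample names lack the lane suffix of the others, and 4 of 5 markers of plasmacytoid dendritic cells (pDC), 3 of 5 of conventional dendritic cells and 6 of 6 of macrophages and monocytes were higher in both of them than in any other library. The libraries numbered 1 also deviated together from their genotype means. Pairing within numbers 2 and 3 was less clear, since *Junb*-deficient 2 followed control 3 about as closely as control 2. Results that change when genotypes are compared within each number (the replicate block) are therefore given both ways. The methods state a minimum read depth, but the FPKM values hold no read counts for each library. Depth estimated from low values, as a multiple of that of control 1, ranged over 0.467 to 0.812 in *Junb*-deficient libraries and was 0.483 and 0.354 in control 2 and 3. FPKM over all genes summed to 811691 and 862049 in control 2 and 3, against 496684 to 657992 in the other 4 libraries. The median over tested genes was 12.7 to 13.3 FPKM in all 6. The part of these unequal sums in single-gene differences was not tested.

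To ask whether loss of JunB changed ISG expression, the genotypes were compared with limma on log2(FPKM + 1), where called means an unadjusted 2-sided p under 0.05 with a log2 difference beyond 0.5, after the study's thresholds. Of the 39 ISGs, 2 rose in *Junb*-deficient Treg cells (*Oas2* and *Oasl2*) and 0 fell, against 1.67% of all 11781 tested genes called higher and 2.89% called lower. The median log2 difference, *Junb*-deficient minus control, was -0.07 over the ISGs and -0.05 over all tested genes. None of the 39 passed a Benjamini-Hochberg adjusted p of 0.05 in limma (smallest adjusted p = 0.834), as none of all tested genes did, and 2 ISGs and 636 genes had an unadjusted p under 0.05. Under the replicate block, 3 ISGs were called higher (*Oas2*, *Oasl1* and *Oasl2*, with 3.58% of all genes) and 2 lower (*Rtp4* and *Gbp3*, with 7.20% of all genes). There 0 ISGs and 1 gene of all (0.00849%) passed the adjusted test. A term for the lane suffix in place of the block called the same 5 ISGs, beside 3.52% of all genes higher and 7.13% lower, and 0 ISGs but 0.0594% of all genes passed its adjusted test. Counts this small describe the ISGs and were not read as setting them apart from other genes. In bulk RNA, fewer cells of a type and less RNA per cell cannot be told apart.

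**Figure D1:**
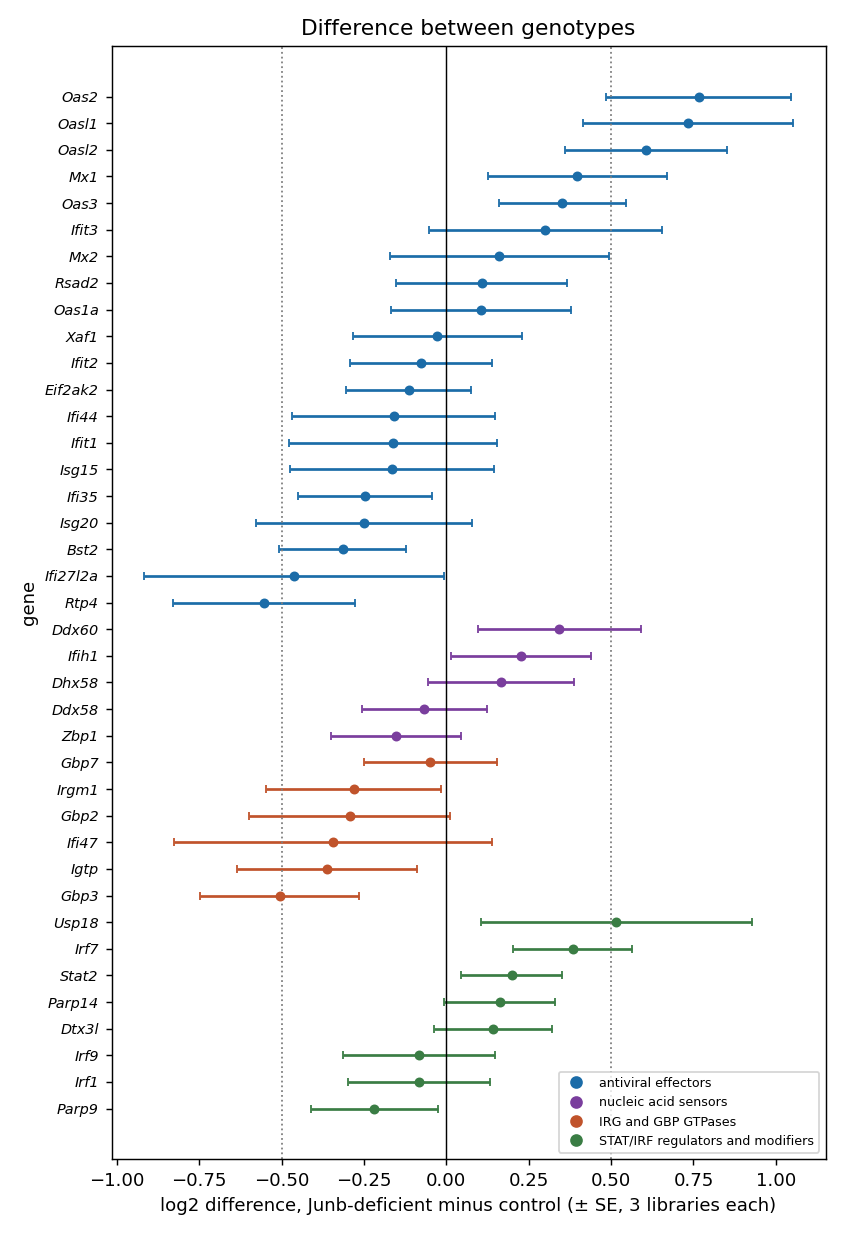
Log2 difference of each ISG on the log2(FPKM + 1) scale, *Junb*-deficient minus control, with its standard error in limma (3 libraries per genotype), coloured by role, and dotted lines at a difference of 0.5 in each direction. *Oas2*, *Oasl1* and *Oasl2* lie furthest to the right at 0.77, 0.73 and 0.61, and the 6 GTPases all lie left of 0, with *Gbp3* at -0.51, although *Gbp7* moves to 0.04 with quantile scaling.

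Among the antiviral effectors, both genes called higher in *Junb*-deficient cells without the replicate block, *Oas2* and *Oasl2*, were of the OAS family. OAS proteins are sensors of double-stranded RNA, and the active enzymes make the 2-5A messenger that starts RNA decay by RNase L. *Oas2*, an active synthetase (mm9 chromosome 5, 121180342 to 121199862), was at 7.96, 6.80 and 4.19 FPKM in *Junb*-deficient 1, 2 and 3, against 2.52, 2.97 and 4.28 FPKM in control 1, 2 and 3. Every control lay below *Junb*-deficient 1 and 2, while *Junb*-deficient 3 lay just under control 3, so the groups overlapped. *Oas2* averaged 6.32 ± 1.93 FPKM in *Junb*-deficient cells and 3.26 ± 0.91 FPKM in controls (SD, n = 3 each), a log2 difference of 0.77 (SE 0.28, limma adjusted p = 0.834). The call for *Oas2* was lost without *Junb*-deficient 1 (log2 difference 0.60), *Junb*-deficient 2 (0.70), control 1 (0.64) or control 2 (0.73).

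*Oasl2* and *Oasl1* encode OAS-like proteins with ubiquitin-like domains. OASL1 is known in mice as a translational inhibitor of IRF7. For *Oasl2* (mm9 chromosome 5, 115346943 to 115362243) the levels were 10.2, 5.60 and 8.20 FPKM in *Junb*-deficient 1, 2 and 3, against 5.05, 5.29 and 4.08 FPKM in control 1, 2 and 3. The 3 *Junb*-deficient libraries lay above all 3 controls, by little in the case of *Junb*-deficient 2. *Oasl2* averaged 8.01 ± 2.32 FPKM against 4.81 ± 0.64 FPKM in controls (SD, n = 3 each), a log2 difference of 0.61 (SE 0.24, limma adjusted p = 0.834). Its call was lost when any 1 library except *Junb*-deficient 2 was left out, with log2 differences of 0.43 without *Junb*-deficient 1, 0.57 without *Junb*-deficient 3, 0.64 without control 1, 0.67 without control 2 and 0.51 without control 3.

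*Oasl1* (mm9 chromosome 5, 115373249 to 115387924) was at 12.03, 5.13 and 5.84 FPKM in *Junb*-deficient 1, 2 and 3, against 4.80, 3.87 and 3.21 FPKM in control 1, 2 and 3. Here too the groups did not overlap, with *Junb*-deficient 1 far above the rest. The log2 difference of 0.73 (SE 0.32) narrowly missed the threshold on p in the unpaired fit, and with the replicate block *Oasl1* was called higher (SE 0.22, limma adjusted p = 0.252). Without *Junb*-deficient 1 its difference was 0.40 and was not called. The remaining members of the family were not called. *Oas3*, the longest OAS enzyme, was at 10.9, 9.61 and 11.7 FPKM in *Junb*-deficient 1, 2 and 3, against 9.12, 6.60 and 9.03 FPKM in control 1, 2 and 3, again without overlap. *Oas1a* overlapped between genotypes, at 12.4 to 18.1 FPKM in *Junb*-deficient libraries and 11.1 to 21.3 FPKM in controls, and 34.9% of its 100-base stretches also occur in *Oas1g*, so that reads could be split between both genes.

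Lower values were found for *Rtp4*, a chaperone of receptor trafficking that is induced by type I interferon. *Rtp4* (mm9 chromosome 16, 23610005 to 23614308) was at 21.1, 24.8 and 22.6 FPKM in *Junb*-deficient 1, 2 and 3, against 21.8, 39.2 and 45.3 FPKM in control 1, 2 and 3. Control 2 and 3 lay well above all other libraries, and control 1 lay among the *Junb*-deficient ones. The log2 difference was -0.55 (SE 0.28), not called, and *Rtp4* was called lower with the replicate block (SE 0.20, limma adjusted p = 0.287) and without control 1 (-0.86).

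The effector of highest level was *Ifi27l2a*, an interferon-induced membrane protein gene, at 690, 1435 and 1097 FPKM in *Junb*-deficient 1, 2 and 3, against 1005, 1171 and 2409 FPKM in control 1, 2 and 3. The spread within each genotype exceeded the log2 difference of -0.46 (SE 0.46), and control 3 alone held the high value. It stood at the 99.4th percentile of mean FPKM among tested genes, and 32.1% of its 100-base stretches are shared with *Ifi27l2b*. For *Ifit3*, 31.65% of the stretches are shared with *I830012O16Rik*.

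The other 13 effectors were not called in the unpaired fit or with the block. Their log2 differences ran from -0.31 for *Bst2*, the tetherin that holds budding virus at the cell surface, to 0.40 for *Mx1*, a dynamin-like GTPase that is defective in most laboratory strains. Neither *Isg15*, the ubiquitin-like modifier, nor *Ifit1* and *Ifit2*, whose products bind RNA, were called. Their log2 differences were -0.16, -0.16 and -0.08. For *Isg15* the 3 levels were 84.8, 49.1 and 40.3 FPKM in *Junb*-deficient 1, 2 and 3, against 69.3, 47.8 and 71.9 FPKM in control 1, 2 and 3, so that the highest and the lowest library were both *Junb*-deficient. *Rsad2* (viperin) and *Ifi44*, ISGs with strong induction by type I interferon, were low in both genotypes. *Rsad2* was at 2.32 to 3.53 FPKM in *Junb*-deficient libraries and 1.98 to 3.46 FPKM in controls, and *Ifi44* was at 1.23 to 2.79 FPKM in *Junb*-deficient libraries and 1.79 to 3.17 FPKM in controls.

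**Figure D2:**
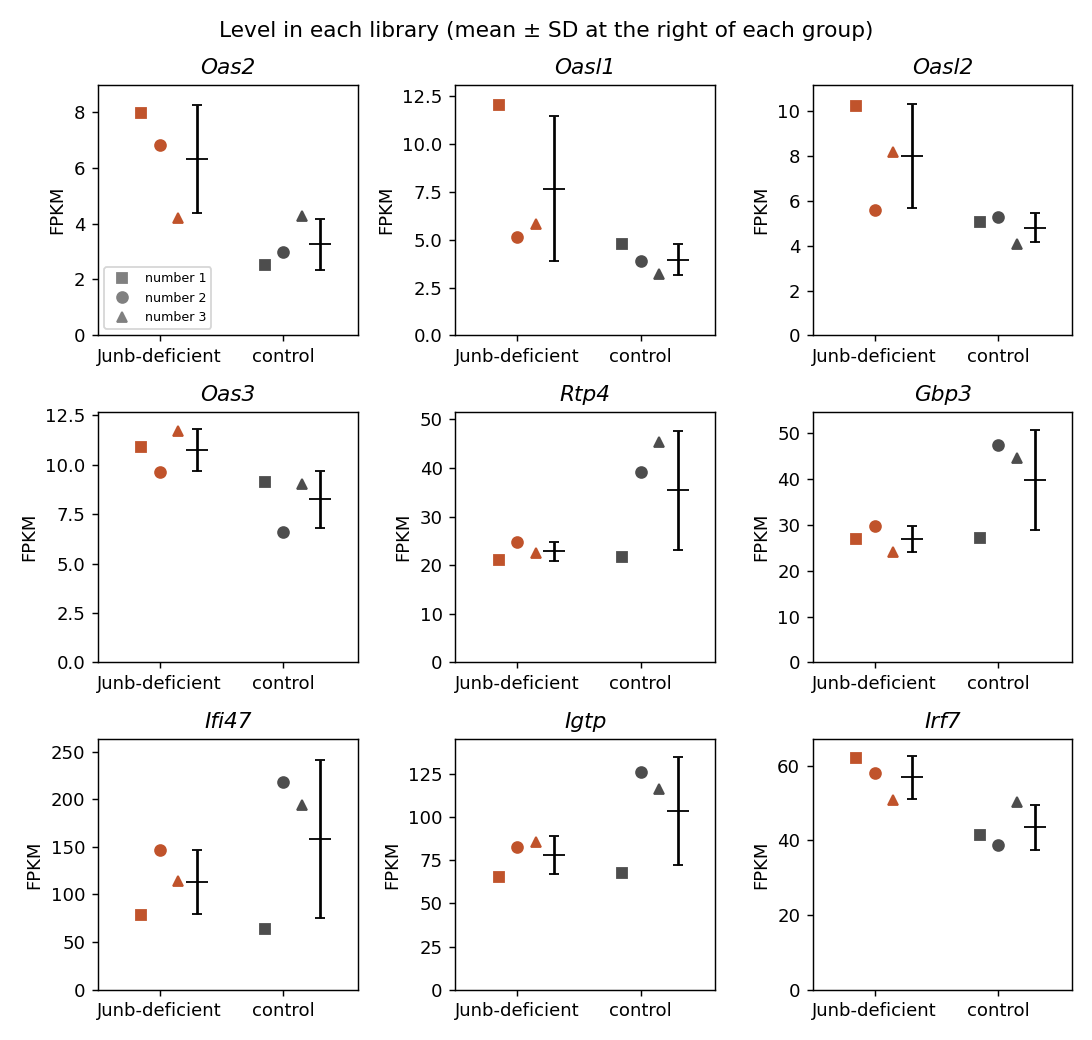
FPKM of 9 ISGs in each library, *Junb*-deficient at the left and control at the right of each panel, with symbols for the replicate number and the mean ± SD of 3 libraries beside the points. *Oasl1*, *Oasl2*, *Oas3* and *Irf7* show no overlap between genotypes, while for *Rtp4*, *Gbp3*, *Ifi47* and *Igtp* control 1 lies among or below the *Junb*-deficient libraries and control 2 and 3 lie above them.

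The 6 GTPases were the group with the most even direction. All 6 log2 differences lay below 0 in FPKM as deposited, as did those of 6593 of all 11781 tested genes. Among GTPases outside the 6, *Gbp9* differed by 0.16, and *Gbp6* and *Irgm2* by -0.26 and -0.24. The median of the 6 was -0.32, although 0 of the 6 were called in the unpaired fit. With quantile scaling their median was -0.16 and *Gbp7* stood at 0.04. *Gbp3*, a guanylate-binding protein gene (mm9 chromosome 3, 142223016 to 142236173), had the smallest p. It was at 27.0, 29.9 and 24.1 FPKM in *Junb*-deficient 1, 2 and 3, against 27.2, 47.5 and 44.5 FPKM in control 1, 2 and 3. Control 2 and 3 exceeded all *Junb*-deficient libraries, but control 1 did not. The log2 difference of *Gbp3* was -0.51 (SE 0.24), not called, and it was called lower with the replicate block (SE 0.20, limma adjusted p = 0.313).

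*Igtp* and *Ifi47*, members of the immunity-related GTPase (IRG) family, showed the same pattern. *Igtp* was at 65.3, 82.7 and 85.7 FPKM in *Junb*-deficient 1, 2 and 3, against 67.6, 126 and 116 FPKM in control 1, 2 and 3. *Ifi47*, the GTPase of highest level, was at 78.9, 146 and 114 FPKM in *Junb*-deficient 1, 2 and 3, against 63.8, 218 and 194 FPKM in control 1, 2 and 3. In both genes control 1 was close to or below *Junb*-deficient 1, and control 2 and 3 were the highest libraries. The log2 differences were -0.36 (SE 0.27) for *Igtp* and -0.34 (SE 0.48) for *Ifi47*, and neither was called with the block. *Irgm1*, an IRG regulator that guards host membranes, and *Gbp2* gave log2 differences of -0.28 and -0.29 with control 2 and 3 again highest, and *Gbp7* gave -0.05.

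The number of lower calls depended on control 1. Without it, 7 ISGs were called lower (*Isg20*, *Rtp4*, *Ifi47*, *Irgm1*, *Igtp*, *Gbp2* and *Gbp3*) and 1 higher (*Oasl1*), while 1532 of all genes were called lower and 788 higher, against 340 and 197 with all libraries. With both libraries numbered 1 left out (2 against 2), 4 ISGs were called lower (*Rtp4*, *Ifi47*, *Igtp* and *Gbp3*) beside 13.2% of all genes, and 1, *Oasl1*, was called higher beside 6.74%. There the log2 differences of *Ifi47*, *Igtp* and *Gbp3* were -0.67, -0.52 and -0.75, and *Rtp4* at -0.81 was the 1 ISG past the adjusted test (limma adjusted p = 0.0499), as were 2.26% of all genes.

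**Figure D3:**
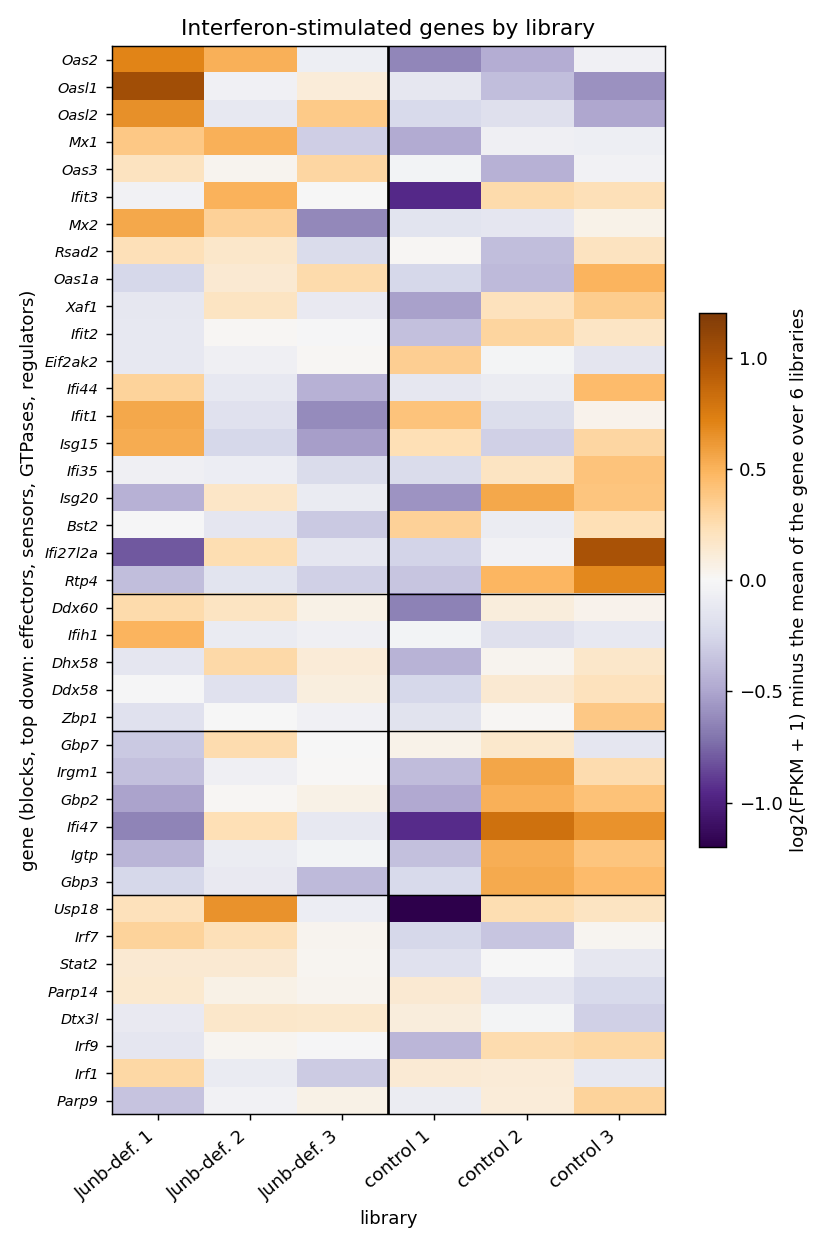
Each ISG's log2(FPKM + 1) in each library minus its mean over the 6 libraries, with *Junb*-deficient libraries in the 3 left columns, controls in the 3 right columns and genes in blocks by role. *Oas2* is high in *Junb*-deficient 1 and 2, 5 of the 6 GTPases are high in control 2 and 3 and low in both libraries numbered 1, and *Usp18* is lowest in control 1, at 9.19 FPKM.

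STAT/IRF regulators and modifiers were not called in the unpaired fit or with the block (0 of 8 each), with a median log2 difference of 0.15. *Irf7*, the factor that amplifies type I interferon production (mm9 chromosome 7, 148448605 to 148452380), came closest. It was at 61.9, 58.1 and 50.7 FPKM in *Junb*-deficient 1, 2 and 3, against 41.4, 38.8 and 50.2 FPKM in control 1, 2 and 3. The groups did not overlap, though *Junb*-deficient 3 and control 3 were nearly equal. *Irf7* averaged 56.9 ± 5.71 FPKM and 43.5 ± 5.99 FPKM in controls (SD, n = 3 each), a log2 difference of 0.38 (SE 0.18, limma adjusted p = 0.834). With quantile scaling it was 0.51 and was called higher.

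*Stat2*, the STAT specific to the type I and type III pathway, was at 18.6, 18.6 and 17.2 FPKM in *Junb*-deficient 1, 2 and 3, against 14.9, 16.8 and 15.3 FPKM in control 1, 2 and 3. Again the groups did not overlap, but the log2 difference was small at 0.20 (SE 0.15). Its partner *Irf9* overlapped, at 62.1 to 69.5 FPKM in *Junb*-deficient libraries and 50.8 to 83.3 FPKM in controls. *Irf1*, a factor induced by IFN-γ and the regulator of highest level, was at 146, 112 and 96.2 FPKM in *Junb*-deficient 1, 2 and 3, against 131, 130 and 110 FPKM in control 1, 2 and 3, with a log2 difference of -0.08 (SE 0.22) and full overlap. *Usp18*, the isopeptidase that removes ISG15 and restrains IFNAR signalling, had a log2 difference of 0.52 (SE 0.41) that came largely from number 1, where the levels were 26.5 FPKM in *Junb*-deficient 1 and 9.19 FPKM in control 1. *Parp9*, *Dtx3l* and *Parp14*, ADP-ribosylation and ubiquitin ligase partners that act on interferon responses, gave log2 differences of -0.22, 0.14 and 0.16. *Parp9* and *Dtx3l* overlap on opposite strands, as do *Irf7* and *Phrf1*, and *Oasl1* and *Gm13822*. Further ISGs, among them *Irf1*, *Dhx58*, *Ifi35* and *Eif2ak2*, also overlap genes of the opposite strand. On the same strand, *Ifi47* overlaps *Olfr56*, *Irf9* overlaps *Rnf31* and *Ifi27l2a* overlaps *Ifi27l2b*. No source used here says how strand was treated in counting.

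None of the 5 sensors was called (0 of 5 in the unpaired fit and 0 of 5 with the block), with a median log2 difference of 0.17. *Ddx60*, a helicase that assists RIG-I, was at 7.86, 7.41 and 6.66 FPKM in *Junb*-deficient 1, 2 and 3, against 3.68, 6.87 and 6.60 FPKM in control 1, 2 and 3. Only control 1 was clearly lower. *Ifih1* (MDA5), which binds long double-stranded RNA, was at 12.3, 7.83 and 8.07 FPKM in *Junb*-deficient 1, 2 and 3, against 8.21, 7.30 and 7.67 FPKM in control 1, 2 and 3, and *Junb*-deficient 1 alone stood out. *Zbp1*, a sensor of Z-form nucleic acid and the most abundant of the 5, was at 66.9, 75.8 and 73.0 FPKM in *Junb*-deficient 1, 2 and 3, against 67.7, 76.3 and 99.1 FPKM in control 1, 2 and 3. These differed by 0.34 (SE 0.25), 0.23 (SE 0.21) and -0.15 (SE 0.20) on the log2 scale, and for *Ddx58* (RIG-I) and *Dhx58* (LGP2) the differences were -0.07 and 0.17.

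Counting libraries rather than testing them, 5 of the 39 ISGs were higher in every *Junb*-deficient library than in any control (*Oasl1*, *Oasl2*, *Oas3*, *Irf7* and *Stat2*), where 4.58% of all tested genes did, and 0 were lower in every one, where 6.36% of all genes did. Of these 5, *Oas3* and *Stat2* had the ISRE core in their promoter window, and the other 3 did not. An exact test of 3 libraries against 3 cannot give a p below 0.1.

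The direction of the ISGs varied between replicate numbers. Within number 1, 28 of 39 were higher in the *Junb*-deficient library, with a median log2 difference of 0.23. Within number 2, 21 were higher, with a median of 0.04, and within number 3 only 11 were higher, with a median of -0.25. The medians of all tested genes within the 3 numbers were 0.01, -0.12 and -0.03. The effectors shifted most among the 4 roles, with a median of 0.24 within number 1 (16 of 20 higher) and of -0.44 within number 3 (4 of 20 higher). The GTPases had medians of -0.02, -0.59 and -0.39 within numbers 1, 2 and 3. Within every number 8 ISGs were higher in the *Junb*-deficient library (*Oas3*, *Oasl1*, *Oasl2*, *Ddx60*, *Ifih1*, *Irf7*, *Stat2* and *Parp14*), as were 15.7% of all genes. In the other direction 7 ISGs were lower within every number (*Rtp4*, *Bst2*, *Zbp1*, *Igtp*, *Gbp2*, *Gbp3* and *Parp9*), as were 22.3% of all genes. Whether the numbers differ in their genotype effect was not tested, since each number has 1 library per genotype.

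**Figure D4:**
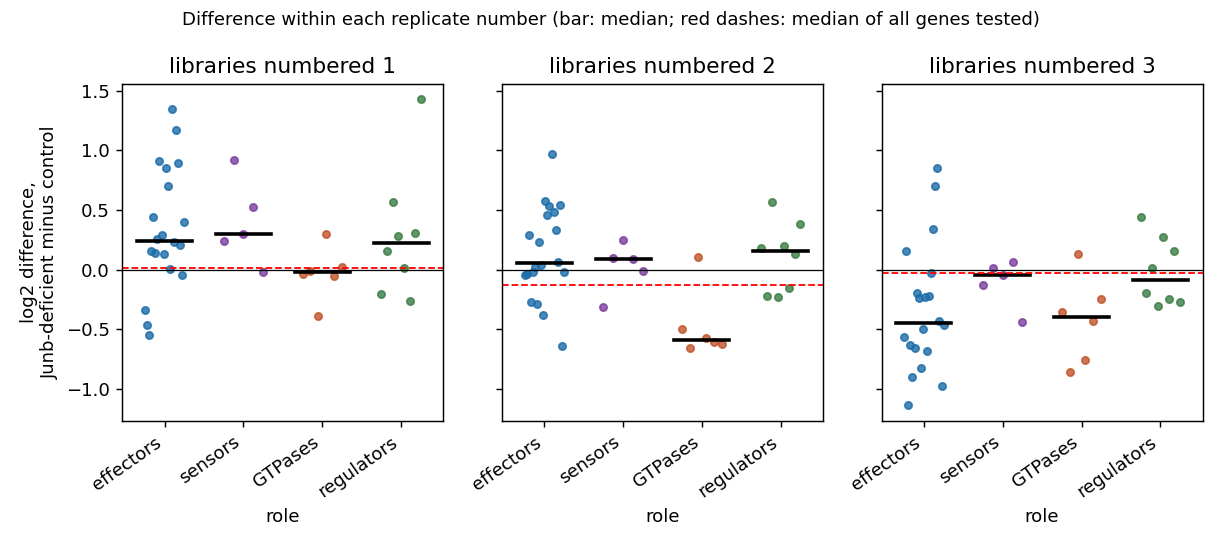
Log2 difference, *Junb*-deficient minus control, of each ISG within each replicate number, by role (points are genes, black bars medians of a role, and the dashed line the median of all tested genes). Effectors have medians of 0.24, 0.05 and -0.44 within numbers 1, 2 and 3, and the GTPases have medians of -0.02, -0.59 and -0.39.

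The libraries numbered 1 were also compared with the other 4. With genotype as a covariate, 3 ISGs were higher in the libraries numbered 1 than in the other 4 (*Isg15*, *Ifit1* and *Oasl1*) and 9 were lower (*Isg20*, *Ifit3*, *Rtp4*, *Ifi27l2a*, *Ifi47*, *Irgm1*, *Igtp*, *Gbp2* and *Usp18*), against 13.0% and 17.0% of all genes. These 12 of 39 ISGs were near the share of all genes called. Of them, 6 passed the limma test adjusted over all genes (*Ifit1*, *Isg20*, *Ifi47*, *Irgm1*, *Igtp* and *Gbp2*), a smaller share than the 20.5% of all genes. *Ifi47* differed most, by -1.19 on the log2 scale (SE 0.24, limma adjusted p = 0.0138). For *Gbp2* the difference was -0.75 (SE 0.15, limma adjusted p = 0.0147), and both libraries numbered 1, at 27.1 and 27.8 FPKM, lay below the others at 39.6 to 56.1 FPKM. *Ifit1* went the other way by 0.71 (SE 0.19, limma adjusted p = 0.0355), with 33.2 and 30.0 FPKM in the libraries numbered 1 and 14.3 to 23.1 FPKM in the others. *Isg20*, a 3′ exonuclease for single-stranded RNA, was lower (log2 difference -0.77, SE 0.18, limma adjusted p = 0.0228). In all, 4 ISGs had both libraries numbered 1 above the other 4 (18.9% of all genes) and 14 had both below (23.3% of all genes).

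Markers of other cells moved with library number. The 5 pDC markers summed to 82.1 FPKM in *Junb*-deficient 1 and to 171 FPKM in control 1, against 12.6 to 21.1 FPKM in the other 4. *Siglech*, a receptor that defines pDC, was at 19.5 and 55.8 FPKM there and at 0.15 to 1.91 FPKM in the others, and *Cox6a2* was at 0 in *Junb*-deficient 2, control 2 and control 3. The pDC is known as a strong source of type I interferon. The summed level of the 6 macrophage and monocyte markers was 35.2 and 56.2 FPKM in the libraries numbered 1 and 3.71 to 8.26 FPKM in the others, with *Cd14* at 0 in *Junb*-deficient 2, and the 5 conventional dendritic cell markers summed to 31.1 and 18.6 FPKM against 3.03 to 8.99 FPKM. Between genotypes the pDC sums overlapped, at 17.7 to 82.1 FPKM in *Junb*-deficient libraries and 12.6 to 171 FPKM in controls. Within number 1 the control was higher. *Junb*-deficient 2 and 3, at 21.1 and 17.7 FPKM, lay above control 2 and 3, at 12.9 and 12.6 FPKM. Conventional dendritic cell sums were higher without JunB within every number (31.1, 7.20 and 8.99 FPKM against 18.6, 3.03 and 3.37 FPKM). Macrophage and monocyte sums overlapped, at 3.97 to 35.2 FPKM against 3.71 to 56.2 FPKM in controls. The part of these cells in the ISG levels was not tested.

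**Figure D5:**
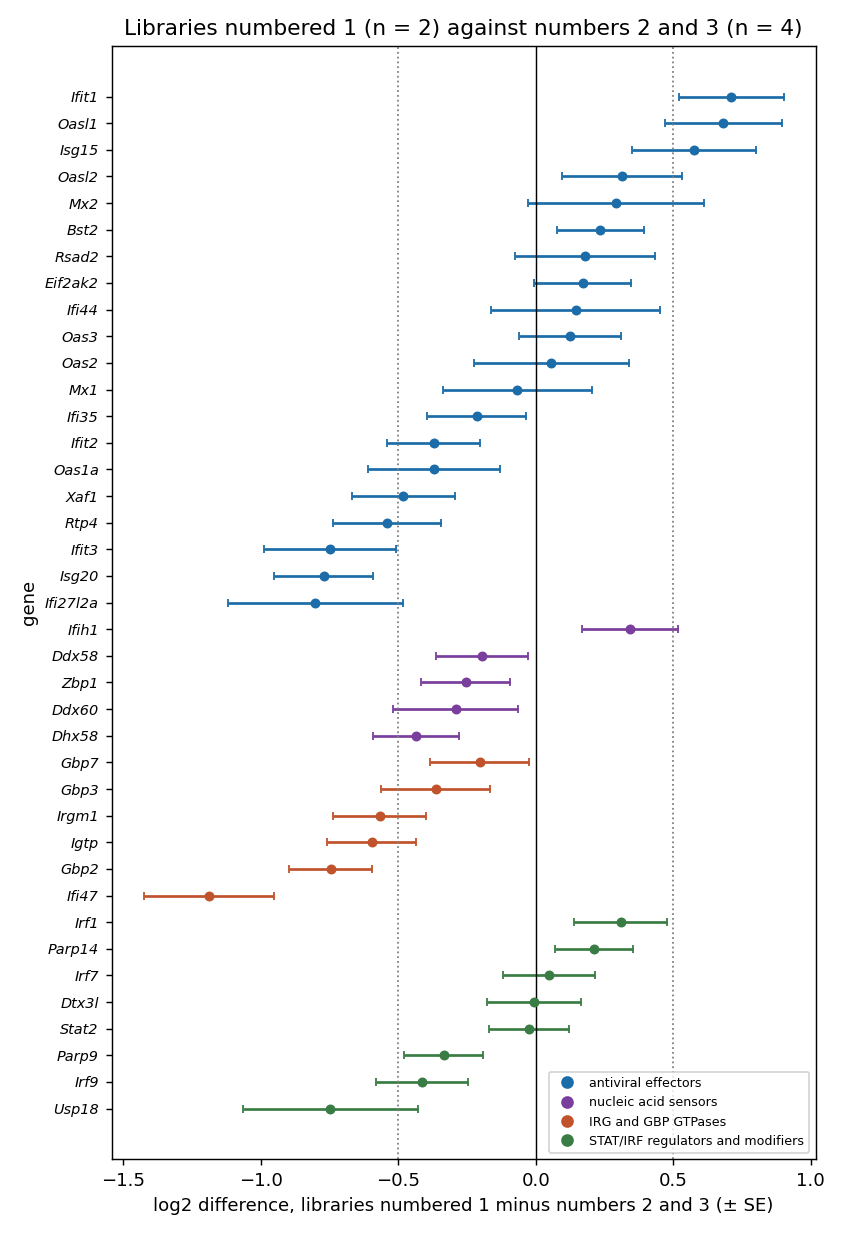
Log2 difference of each ISG between the 2 libraries numbered 1 and the other 4, with its standard error in limma and genotype as a covariate, coloured by role. *Ifit1*, *Oasl1* and *Isg15* lie at the right at 0.71, 0.68 and 0.58, and *Ifi47*, *Ifi27l2a* and *Isg20* lie furthest left at -1.19, -0.80 and -0.77.

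The rest of the interferon pathway was read from lists of its components. Among 5 interferon genes in the table, only *Ifng* reached the minimum level. It was at 18.8, 10.8 and 12.5 FPKM in *Junb*-deficient 1, 2 and 3, against 20.4, 14.3 and 18.1 FPKM in control 1, 2 and 3, a log2 difference of -0.33 (SE 0.25) that was not called. *Ifnb1* was at 0.63 FPKM in *Junb*-deficient 1, at 0.24 FPKM in control 1 and listed at 0 in the other 4 libraries. *Ifna1* was at 0.98 FPKM in *Junb*-deficient 2 alone, *Ifna2* was at 0.19 FPKM in *Junb*-deficient 1 alone, and *Ifna4* was listed at 0 in all 6. Of the 7 receptor and kinase genes 0 were called. Of the 3 with the smallest p, *Ifngr2*, a chain of the IFN-γ receptor, was at 39.5, 15.5 and 14.8 FPKM in *Junb*-deficient 1, 2 and 3, against 15.3, 18.2 and 13.0 FPKM in control 1, 2 and 3. Only *Junb*-deficient 1 was high, and the log2 difference of 0.42 was -0.02 without both libraries numbered 1. *Jak1* was at 199.8, 169 and 186 FPKM in *Junb*-deficient 1, 2 and 3, against 169, 178 and 138 FPKM in control 1, 2 and 3. *Jak2* was at 65.2, 36.0 and 46.4 FPKM in *Junb*-deficient 1, 2 and 3, against 54.7, 42.9 and 30.5 FPKM in control 1, 2 and 3. Both kinase genes overlapped between genotypes, with log2 differences of 0.20 each, and *Jak2* was highest in the libraries numbered 1. The receptor chain gene *Ifnar1* was at 58.3 to 72.4 FPKM in *Junb*-deficient libraries and 56.7 to 72.8 FPKM in controls.

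Of 15 other STATs, IRFs, adaptors and inhibitors, 1 was called higher and 0 lower (1.67% and 2.89% of all genes). This was *Stat3*, which signals for IL-6 family cytokines and IL-10, at 125, 76.7 and 104 FPKM in *Junb*-deficient 1, 2 and 3, against 78.8, 57.8 and 54.9 FPKM in control 1, 2 and 3. *Stat3* differed by 0.66 on the log2 scale (SE 0.25, limma adjusted p = 0.834), with overlap only because *Junb*-deficient 2 lay just under control 1. With the replicate block *Irf8* was called lower (-0.61, limma adjusted p = 0.275), and its levels, like the pDC markers, were highest in number 1, at 29.0 FPKM in *Junb*-deficient 1 and 60.8 FPKM in control 1 against 7.25 to 13.7 FPKM elsewhere.

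A further list of 35 ISGs outside the 39, of which 34 reached the minimum level, gave 0 higher and 1 lower (1.67% and 2.89% of all genes), with a median log2 difference of -0.12. The call was *Ifitm2*, a membrane protein that blocks viral entry, at 19.5, 18.1 and 21.2 FPKM in *Junb*-deficient 1, 2 and 3, against 21.6, 45.3 and 38.9 FPKM in control 1, 2 and 3. All 3 *Junb*-deficient libraries were below all controls, control 1 by little, and the log2 difference was -0.75 (SE 0.28, limma adjusted p = 0.834). With the replicate block 3 of the 34 were called lower, beside 7.20% of all genes, adding *Ly6a* (Sca-1) and the chemokine gene *Cxcl10*. *Ly6a* was at 91.5, 206 and 205 FPKM in *Junb*-deficient 1, 2 and 3, against 204, 313 and 332 FPKM in control 1, 2 and 3. *Cxcl10* was at 35.9, 15.4 and 9.85 FPKM in *Junb*-deficient 1, 2 and 3, against 63.0, 29.4 and 23.1 FPKM in control 1, 2 and 3. Within each number the *Junb*-deficient library was lower for both genes, with log2 differences of -0.81 (limma adjusted p = 0.195 with the block) for *Ly6a* and -0.95 (limma adjusted p = 0.0943 with the block) for *Cxcl10*, while across numbers the genotypes overlapped.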

How the data were processed

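The authors deposited FPKM values for 37305 genes in 6 libraries, for which the submitters' processing notes name TopHat2 2.2.1, Cufflinks and mm9, from libraries of a kit that marks strand. No source used here says whether libraries were scaled further or how strand and multiply matching reads were handled. Without counts no counting error can be given, and depth was compared through the ratios of very low FPKM to those of control 1. The table's columns without a replicate number were matched to the remaining libraries, numbered 1. No 2 libraries were identical (0 pairs).

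All 11781 genes whose mean reached 1 FPKM were fitted as log2(FPKM + 1) by limma 3.58.1 under R 4.3.3 (mean-variance trend, 2-sided, Benjamini-Hochberg over all tested genes), and fold changes are on that scale, which understates those of low genes. The study's thresholds are a p of 0.05 and a log2 difference of 0.5. It does not say whether that p was adjusted, and it was applied here as unadjusted. No test is named for its RNA sequencing in particular. Each library's departure from its genotype mean was correlated over the tested genes, giving 0.57, 0.42 and 0.24 within numbers 1, 2 and 3. Between different numbers the values ran from -0.53 to 0.41, the highest for *Junb*-deficient 2 with control 3. These values set number 1 apart but do not show that libraries are paired within numbers 2 and 3. The block takes the replicate number as the pairing, while the lane term separates number 1 only. Alternatives were another pseudocount (0.1), no minimum level or 5 FPKM, median-ratio and quantile scaling, no trend, the block, a term for the lane suffix, and leaving out each library or both numbered 1. The fit was run on simulated data with independent noise in each gene and library, and the block fit also with an added effect of the replicate number. Such data check the code and do not reproduce how these libraries vary.

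The 39 members, their roles, the pathway and marker lists and the rules were chosen with earlier results of these data known. Values in every library are given for members called in the unpaired fit or with the block, for the 2 of each role with the smallest p and for that of highest mean level, and of each pathway list for called genes or the 3 with the smallest p. Values of *Oas3*, *Isg15*, *Usp18*, *Ifnar1* and other genes beyond this were chosen after they were seen. Some genes of the lists are not reported here. Positions are from GENCODE vM1 (mm9), promoters from RefSeq (GRCm38.p6), with no conversion between builds. Stretches of 100 bases shared between transcripts were counted in GENCODE vM1. Tables and figures used Python 3.11.15, numpy 2.4.6, pandas 2.3.3 and matplotlib 3.10.9.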

Additional observations from a re-analysis of the deposited data

How the results depend on the processing

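With 3 libraries per genotype and no adjusted call among the ISGs, single-gene results are limited by the spread between libraries, and the cause of each shift below was not tested unless it follows from fewer libraries or genes. The 2 ISGs called higher became 1 with no minimum level, 0 at a minimum of 5 FPKM (which leaves out *Oas2*) and 1 without both libraries numbered 1, and 3 with a pseudocount of 0.1, median-ratio scaling, quantile scaling (which adds *Irf7*), the block or the lane term. The 0 called lower became 2 with the replicate block, 2 with the term for the lane suffix and 4 without both libraries numbered 1, where 1 passed the adjusted test. All genes called higher (197) were 422 with the block, 415 with the lane term, 780 without both libraries numbered 1 and 131 at 5 FPKM. Those called lower (340) were 848, 840 and 1528 in the first 3 of these, and those past the adjusted test (0) were 1, 7 and 262. With quantile scaling the split was 257 higher and 263 lower. The 9 ISGs lower in libraries numbered 1 became 5 with no minimum level.

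Leaving out 1 library at a time gave 0 to 2 ISGs higher and 0 to 7 lower, 95 to 788 genes higher and 204 to 1532 lower, and 0 to 1 past the adjusted test, and in the libraries numbered 1 it gave 0 to 4 ISGs higher and 2 to 15 lower. The block changed the calls of *Oasl1*, *Rtp4* and *Gbp3* and of no other ISG. Single log2 differences changed sign in genes that were not called. With quantile scaling *Xaf1* was 0.0648, *Ddx58* 0.0225, *Zbp1* 0.0138, *Gbp7* 0.0377, *Irf1* 0.138 and *Irf9* 0.0757, and *Xaf1* was 0.0118 with median-ratio scaling. Without both libraries numbered 1 *Ifit3* was -0.00287, *Mx2* -0.112, *Eif2ak2* 0.0590 and *Gbp7* 0.119. Over single libraries left out, the ranges that crossed 0 were -0.470 to 0.0574 for *Isg15*, -0.474 to 0.105 for *Ifit1*, -0.283 to 0.0567 for *Ifit2*, -0.0999 to 0.510 for *Ifit3*, -0.0733 to 0.514 for *Mx2*, -0.0667 to 0.376 for *Oas1a*, -0.359 to 0.0271 for *Ifi44*, -0.0541 to 0.247 for *Rsad2*, -0.293 to 0.142 for *Xaf1*, -0.216 to 0.0291 for *Eif2ak2*, -0.209 to 0.0234 for *Ddx58*, -0.0118 to 0.290 for *Dhx58*, -0.190 to 0.103 for *Gbp7*, -0.246 to 0.0518 for *Irf1* and -0.312 to 0.0393 for *Irf9*. Across all alternatives, 509 values of single ISGs kept direction and call, 24 gained a call, 13 lost one and 35 changed sign.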
